A study of Homo sapiens with 4 samples.

Results

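Ubiquitin-specific proteases (USPs) form the largest family of deubiquitinases, the enzymes that take ubiquitin off proteins. USP genes other than USP1 were described here in IMR-32 cells, a long-established line from a human neuroblastoma that carries amplified MYCN. Members were the genes of the count table whose symbol is USP, a number and at most 1 letter, with at least 10 raw counts summed over the 4 libraries. Of 51 such symbols among 60612 genes, 47 were members. USP26, USP29 and USP41 had 0 counts in each library and USP43 had 2 counts in all, so these were left out. Of the 47, 46 passed the filter on low counts and were tested. USP18, the protease that removes the interferon-induced modifier ISG15, had 7 and 5 counts in shControl against 11 and 9 in shNeuroD1 and was not tested. USP18 and USP41 share 94.5% of aligned coding bases and a run of 393 identical bases. Reads within such a run could match both genes, so their counts are uncertain.

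Polyadenylated RNA was sequenced from IMR-32 cells that carried a doxycycline-inducible short hairpin RNA. The hairpin was a control in the shControl group (2 libraries) and was directed against NeuroD1, a neuronal basic helix-loop-helix transcription factor, in the shNeuroD1 group (2 libraries). Both groups had received doxycycline at 1 µg/mL for 48 h. The genotype field calls the control cells WT, and the sources do not state whether the libraries of a group came from separate cultures, so p-values measure only the spread between these libraries. The study used more than 1 hairpin against NeuroD1, with names that end as the titles of these libraries do. The final numbers were read here as replicate numbers, and the shNeuroD1 libraries may carry different hairpins. The question of the comparison was how the RNA of this enzyme family stood once the hairpin against NeuroD1 had been induced.

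The libraries held between 14665210 and 16482463 counts. NEUROD1 itself had 419 and 414 CPM (counts scaled to a common library total, after TMM scaling) in shControl against 63.7 and 58.2 in shNeuroD1, 14.6% of control, and MYCN lay at 99.5% of control (log2 fold change -0.01, 95% interval -0.08 to 0.07). USP1, which is not a member, lay at 41.6% of control. Each of the 10 adrenergic neuroblastoma markers averaged at least 1 CPM, with a summed level between 1842.8 and 2155.7 CPM. Leukocyte markers summed to at most 0.611 CPM, fibroblast markers to 34.9 and 37.7 CPM in shControl against 19.1 and 18.3 CPM in shNeuroD1, nearly all of it COL1A1, and mesenchymal or Schwann-like markers to between 64.4 and 71.6 CPM with PRRX1 at 0. Counts of mitochondrial genes made up 4.37% and 4.59% of shControl libraries against 5.39% and 5.51% in shNeuroD1. The part of these differences in the results was not tested.

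USPs are cysteine proteases with a shared catalytic fold and very different partners. By removing ubiquitin chains they can keep a protein from the proteasome, switch off a signal that ubiquitin carries, or strip single ubiquitins from histones. In MYCN-amplified neuroblastoma several of them are known for stabilising the N-Myc protein, which is otherwise marked for destruction by ubiquitin ligases. RNA levels, which are what was measured here, do not show the amount or the activity of the enzymes.

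USP RNAs moved in both directions. With edgeR's quasi-likelihood test at a Benjamini-Hochberg adjusted p under 0.05, 16 of the 46 members were lower in shNeuroD1, against 28.2% of all 17537 genes tested, and 11 were higher, against 26.8% of all genes. As shares of the members these were 34.8% and 23.9%, near the background on both sides. With scaling to library size alone the split was 10 lower and 18 higher, and higher calls numbered 6 with DESeq2, without shControl replicate 1 and without shNeuroD1 replicate 2. Shares of all genes called under these other settings were not counted. The median log2 fold change of the members was 0.00 and that of all genes was 0.01, and with library size alone both were 0.12. A change beyond 1 on the log2 scale was found for USP12, the only member below -1 (background 5.14% of genes), and for USP27X, the only one above 1 (background 8.79%). Most other changes were smaller, and 18 of the 27 called members changed by less than 0.5 on the log2 scale. CPM values of the groups did not overlap for 34 of the 46 members, or 73.9%, where 76.1% of all genes had groups that did not overlap.

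**Figure D1:**
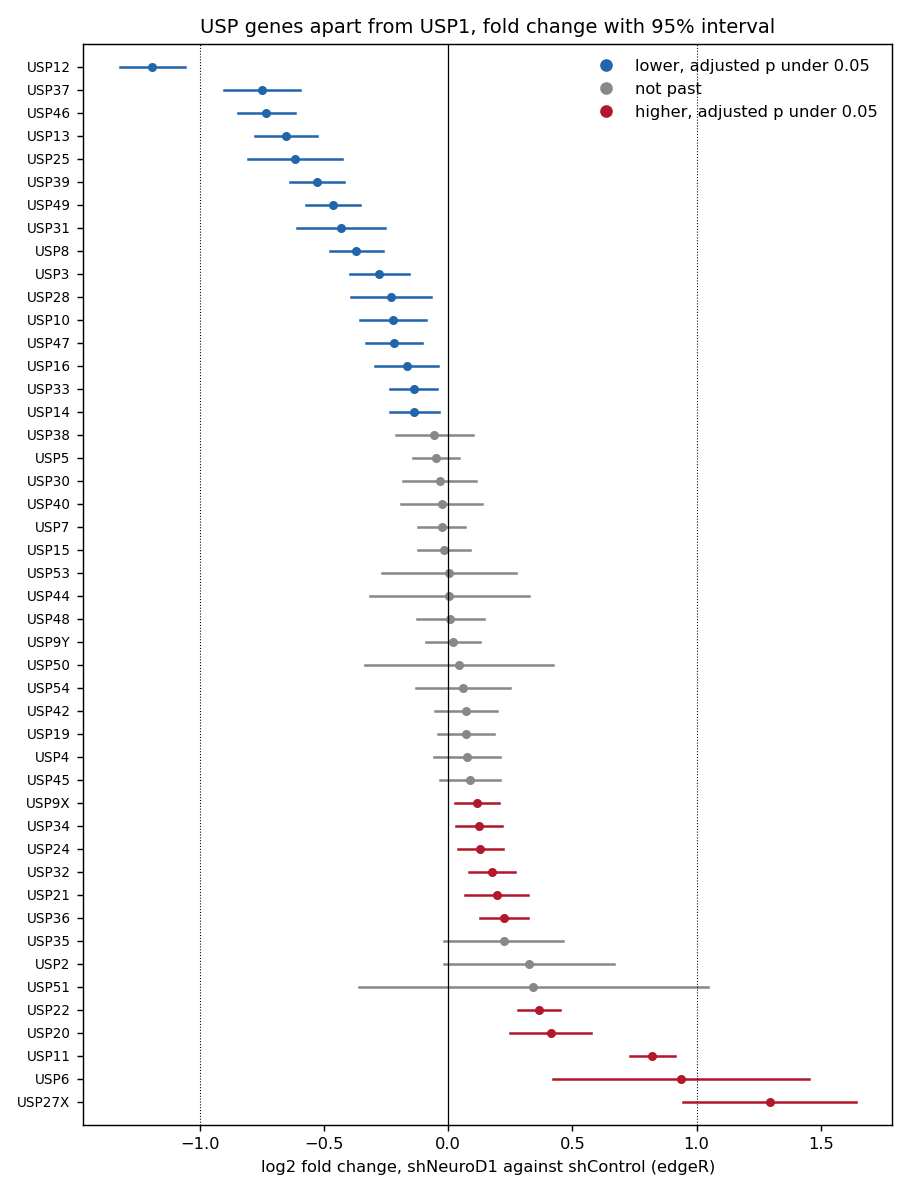
Log2 fold change (x axis, shNeuroD1 against shControl, edgeR) of the 46 USP genes tested, 1 row a gene, with lines for the 95% interval and dotted lines at -1 and 1. Blue marks the 16 lower and red the 11 higher at adjusted p under 0.05; USP12 at -1.19 and USP27X at 1.29 are the ends of the range, and most genes lie close to 0.

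Both members that work with WDR48 fell on counts, USP12 by the most of any member. At edgeR adjusted p under 0.05, 28.2% of all genes were lower. USP12 and its close paralog USP46 are small USPs that gain activity by binding the WD-repeat proteins WDR48 and WDR20. The windows before their transcript starts are shown because both genes fell, with any E-box (CANNTG, the core motif bound by basic helix-loop-helix factors such as NeuroD1) in capitals. They come from the RefSeq promoter table (GRCh38.p14), with bases inside an annotated exon of the gene left out, and both genes lie on the minus strand.
USP12, chr13:27171897-27172061: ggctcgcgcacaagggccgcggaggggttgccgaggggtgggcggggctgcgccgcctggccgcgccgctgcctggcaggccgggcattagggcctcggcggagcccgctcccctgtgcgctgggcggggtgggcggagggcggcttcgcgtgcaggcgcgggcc
USP46, chr4:52659336-52659551: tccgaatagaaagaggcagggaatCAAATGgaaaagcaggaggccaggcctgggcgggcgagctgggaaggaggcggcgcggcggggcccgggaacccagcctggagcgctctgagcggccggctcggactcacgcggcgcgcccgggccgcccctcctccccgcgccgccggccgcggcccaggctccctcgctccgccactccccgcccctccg
Both windows are rich in G and C, at 81.8% for USP12 and 76.4% for USP46. The USP46 window holds 1 match and the USP12 window holds 0. A match describes these letters only, and binding was not measured in these libraries. The study sequenced NeuroD1-bound DNA of IMR-32 cells separately. From the overlap of bound genes with genes lower after knockdown, it named USP1 and USP12 as candidate deubiquitinases. It then followed USP1, whose expression correlated more strongly with NeuroD1 than that of USP12 did in data of MYCN-amplified patients.

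USP12 had 87.7 and 85.3 CPM in shControl against 36.0 and 39.9 CPM in shNeuroD1. Both shNeuroD1 libraries lay far below both control libraries. Its log2 fold change was -1.19 (edgeR adjusted p 1.28e-16, SE 0.0642), which leaves 43.8% of the control level. USP46 had 108 and 115 CPM in shControl against 69.7 and 64.8 CPM in shNeuroD1. Its groups did not overlap either, and it fell to 60.3% of control (log2 fold change -0.73, edgeR adjusted p 1.10e-12, SE 0.0567). On log2(FPKM + 1) the differences were -0.73 for USP12 (limma adjusted p 0.056) and -0.41 for USP46 (limma adjusted p 0.391), and those of USP3 (-1.48) and USP25 (-1.39) were larger. The coding sequences of the pair match at 77.1% of aligned bases, with no identical stretch longer than 20 bases.

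Their activator WDR48 also fell and WDR20 did not pass the test. WDR48 was 98.4 and 99.8 CPM in shControl against 82.4 and 85.0 CPM in shNeuroD1, a log2 fold change of -0.24 (edgeR adjusted p 0.000229, SE 0.0531). WDR20 had a log2 fold change of -0.13 (edgeR adjusted p 0.148) and DMWD, a relative of WDR20, of 0.09 (edgeR adjusted p 0.352). Of the 20 listed partner proteins of USPs, 7 were lower (35%, against 28.2% of all genes) and 3 higher (15% against 26.8%), with a median log2 fold change of -0.03. Those higher were TP53BP1 (log2 fold change 0.38, edgeR adjusted p 5.12e-09), ATXN7L1 and ATXN7L2.

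**Figure D2:**
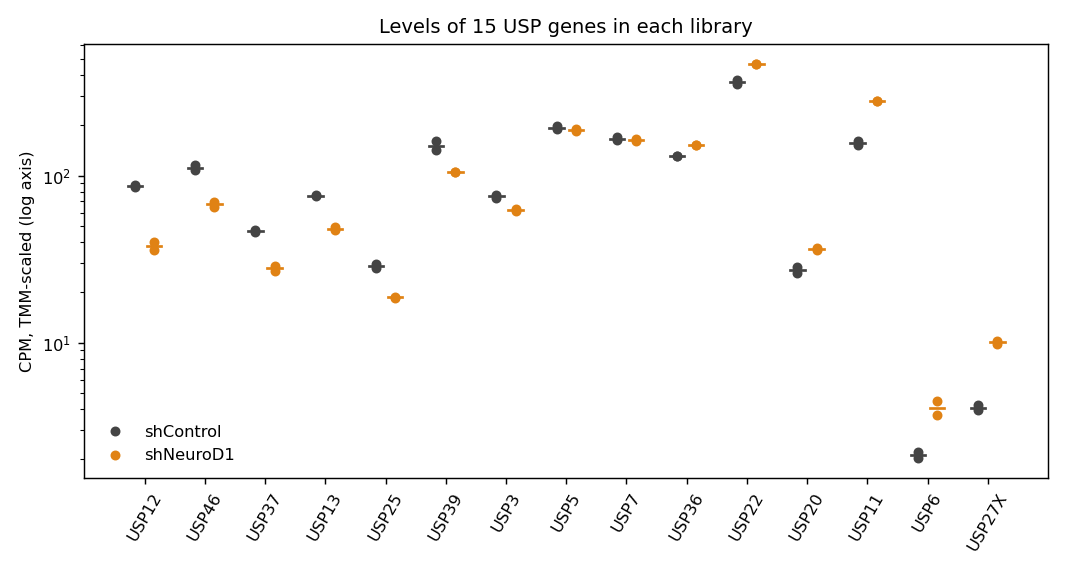
Level in each of the 4 libraries (y axis, CPM after TMM scaling, log axis) of 15 USP genes, with 2 points and a mean bar for each group. The groups are apart for USP12 (87.7 and 85.3 against 36.0 and 39.9 CPM) and USP11 (153 and 161 against 278 and 279 CPM), while those of USP7 overlap.

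Members known to act on N-Myc or MYC did not move together. USP3, USP5, USP7 and USP36 are described as deubiquitinases of N-Myc, and USP28 as one of MYC proteins that opposes the ligase FBXW7. Of these 5, USP3 and USP28 were lower, USP36 was higher, and USP5 and USP7 did not pass the test. As shares these were 40% lower, against 28.2% of all genes, and 20% higher, against 26.8%.
USP3, which also removes ubiquitin from histones, had 73.3 and 76.7 CPM in shControl against 61.2 and 62.7 CPM in shNeuroD1. That is 82.6% of control with groups that do not overlap (log2 fold change -0.28, edgeR adjusted p 1.67e-04, SE 0.0586). On FPKM summed over its starts USP3 had 17.7 and 17.8 in shControl against 4.75 and 6.84 in shNeuroD1, a difference of -1.48 on the log2(FPKM + 1) scale (limma adjusted p 0.0446), so the counts and the assembled transcripts gave very different sizes. USP28 fell to 85.3% of control (log2 fold change -0.23, edgeR adjusted p 0.0138, SE 0.0786), from 39.2 and 44.2 CPM to 37.7 and 33.6 CPM. The USP28 groups are apart by less than 2 CPM, and this call was not made by DESeq2 (adjusted p 0.149).
USP36, a nucleolar enzyme, stood at 130 and 131 CPM in shControl against 151 and 153 CPM in shNeuroD1. It rose to 117% of control (log2 fold change 0.22, edgeR adjusted p 1.47e-04, SE 0.0470).
USP5, which recycles free ubiquitin chains, had 190 and 197 CPM in shControl against 190 and 185 CPM in shNeuroD1, a log2 fold change of -0.05 with a 95% interval of -0.14 to 0.04. USP7, which also keeps the p53 ligase MDM2 stable, had 169 and 163 CPM in shControl against 161 and 166 CPM in shNeuroD1, a log2 fold change of -0.02 with an interval of -0.12 to 0.07. With scaling to library size alone the log2 fold changes of both genes took the other sign. USP3 shares an exonic stretch of 466 bases with USP3-AS1 on the opposite strand. Reads in it could not be told apart if strand was not used, and how the counting treated such reads was not examined. USP3-AS1 had between 63 and 91 counts, against at least 931 for USP3.

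The transcript-start tables, which hold the FPKM that put the fall of USP3 so far above that of its counts, also divide it between starts. They list FPKM (fragments per length of transcript and size of library) of transcripts assembled in each library, and 42 of the 47 members have entries. USP27X is not among them. A start was singled out where its share of the gene's summed FPKM did not overlap between groups and differed by at least 15 percentage points on average, in genes with at least 1 FPKM in every library. This rule was chosen after values were seen. It took 7 of 131 member starts, in 5 genes, where 7.76% of 27482 starts of all genes met it, and 5.34% of the members' starts.
At the upstream start of USP3 (chromosome 15, 63504511) FPKM was 9.19 and 7.04 in shControl against 4.4 and 3.91 in shNeuroD1. An internal start at 63532506, which is the start of an annotated transcript, had 6.05 and 10.7 FPKM in shControl against 0.112 and 0.084 FPKM in shNeuroD1. Its share of USP3 was thus 34.1% and 60.1% in shControl against 2.36% and 1.23% in shNeuroD1. The libraries of a group differed widely in these shares, and no test was made with 2 libraries a group.
In USP30, a mitochondrial outer membrane enzyme that restrains mitophagy, an internal start had more FPKM in shNeuroD1 than in shControl. Its upstream start (chromosome 12, 109052576) had 7.32 and 4.01 FPKM in shControl against 3.94 and 4.01 FPKM in shNeuroD1. That internal start (109082536), the beginning of an annotated transcript with a retained intron, had 0.45 and 0.02 FPKM in shControl against 5.11 and 2.27 FPKM in shNeuroD1. The gene's count did not change detectably, with a log2 fold change of -0.03 (95% interval -0.18 to 0.11). The other starts that met the rule were 1 each in USP20, USP28 and USP4.

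**Figure D3:**
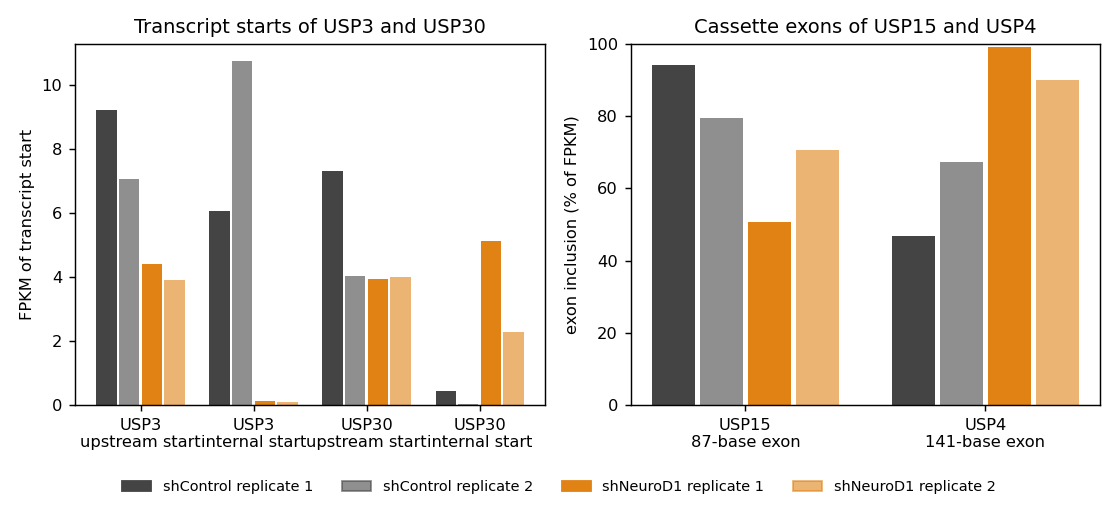
Left, FPKM (y axis) of an upstream and an internal transcript start of USP3 and USP30. Right, inclusion of a cassette exon of USP15 and of USP4 as % of the FPKM of transcripts with and without it. Each bar is 1 library; the internal USP3 start is at 6.05 and 10.7 FPKM in shControl and close to 0 in shNeuroD1.

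Histone-directed members included the largest rise. USP22 is the deubiquitinase of the SAGA coactivator complex, and USP27X and USP51 are X-linked relatives that can take its place on the partners ATXN7L3 and ENY2. Of the 7 histone-directed members, USP22, USP27X and USP21 were higher, USP49 and USP16 were lower, and USP44 and USP51 did not pass the test. As shares these were 42.9% higher, against 26.8% of all genes, and 28.6% lower, against 28.2%.
The window before the RefSeq start of USP27X is shown because this gene rose most, with its 1 E-box in capitals. It lies on the plus strand (GRCh38.p14), where the GENCODE annotation used for the gene begins further downstream.
USP27X, chrX:49879234-49879483: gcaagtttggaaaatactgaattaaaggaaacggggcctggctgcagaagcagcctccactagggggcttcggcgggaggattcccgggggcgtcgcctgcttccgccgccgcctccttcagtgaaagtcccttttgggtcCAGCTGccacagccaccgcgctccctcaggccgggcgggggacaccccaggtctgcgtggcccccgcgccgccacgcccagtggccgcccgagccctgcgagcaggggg
USP27X had 62 and 63 counts in shControl against 156 and 149 counts in shNeuroD1, or 4.21 and 3.97 against 10.3 and 9.79 CPM. It rose 2.45-fold (log2 fold change 1.29, edgeR adjusted p 9.55e-08, SE 0.170), from a low level, with groups far apart.
USP22, far more abundant, stood at 353 and 371 CPM in shControl against 467 and 467 CPM in shNeuroD1. It rose 1.29-fold (log2 fold change 0.37, edgeR adjusted p 4.64e-09, SE 0.0412). On FPKM summed over starts the USP22 groups overlapped, at 47.8 and 52.1 in shControl against 38.4 and 69.7 in shNeuroD1. The difference on log2(FPKM + 1) was 0.05 (limma adjusted p 0.936), so this rise was not seen on that scale. USP51 was scarce, with 20 and 30 counts in shControl against 41 and 22 counts in shNeuroD1. Its groups overlapped, and the 95% interval of its log2 fold change, -0.36 to 1.04, holds both lower and much higher levels.
USP27X and USP22 share 80.8% of aligned coding bases, USP27X and USP51 share 79.7% and a run of 36 identical bases. Only reads no longer than such a run could lie wholly within it and match both genes. USP22 also overlaps CCDC144NL-AS1 on the other strand, which had between 243 and 329 counts.
Of the partners that make up the SAGA deubiquitinase module, ENY2 fell from 154 and 153 CPM to 103 and 107 CPM (log2 fold change -0.54, edgeR adjusted p 3.14e-11, SE 0.0487). ATXN7L3 had a log2 fold change of 0.05 (edgeR adjusted p 0.344) and ATXN7, which anchors the module, of -0.17 (edgeR adjusted p 0.0585). The listed partners ATXN7L1 (log2 fold change 0.39, edgeR adjusted p 0.0224) and ATXN7L2 (0.36, edgeR adjusted p 0.00124) were higher.
USP49, reported to act on histone H2B, was 121 and 134 CPM in shControl against 93.4 and 91.7 CPM in shNeuroD1, 72.5% of control. USP16, a histone H2A deubiquitinase, lay at 89.1% of control, and USP21, another, at 114%. USP44, also an H2B enzyme, had a log2 fold change of 0.00 with an interval of -0.32 to 0.32.

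Of the 3 cell-cycle members USP37 and USP13 fell and USP50 did not pass the test. That is 66.7% lower in a group of 3, against 28.2% of all genes. USP37, which stabilises cyclin A, had 46.2 and 47.4 CPM in shControl against 26.8 and 28.9 CPM in shNeuroD1. It fell to 59.5% of control (log2 fold change -0.75, edgeR adjusted p 4.55e-10, SE 0.0757), close to the log2 fold change of USP46 (-0.73). USP13, a relative of USP5, had 75.2 and 75.9 CPM in shControl against 49.2 and 46.9 CPM in shNeuroD1, 63.6% of control (log2 fold change -0.65, edgeR adjusted p 7.95e-11, SE 0.0610). Both genes had groups that did not overlap.
USP50, which is predicted to be inactive and is placed with this group for its reported role in mitotic entry, had between 75 and 95 counts and a log2 fold change of 0.04 (95% interval -0.33 to 0.42). Its exons overlap those of USP8 on the opposite strand by 276 bases, so its counts are uncertain.
Of 43 S phase genes in the Seurat list 41 were lower (95.3%, against 28.2% of all genes) and 1 higher (2.33% against 26.8%), with a median log2 fold change of -1.19. Of 54 G2/M genes 52 were lower (96.3%) and 1 higher (1.85%), with a median of -0.78. The part of this difference in the falls of USP37 and USP13 was not tested, and in bulk libraries fewer cells in a phase and less RNA per cell cannot be told apart.

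USP11 rose, and its paralogs USP4 and USP15 did not pass the test. These 3 share a domain pair (DUSP and a ubiquitin-like fold) before the catalytic part and act in TGF-beta signalling, in splicing and in DNA repair. USP11 had 153 and 161 CPM in shControl against 278 and 279 CPM in shNeuroD1. It rose 1.77-fold (log2 fold change 0.82, edgeR adjusted p 1.68e-16, SE 0.0448), the lowest adjusted p among the higher members. In the transcript tables a start (X chromosome, 47232866) had 11.3 and 13.3 FPKM in shControl against 54.5 and 24.1 FPKM in shNeuroD1. Another start at 47233030 had 11.6 and 13.1 FPKM in shControl, was listed at 0 in shNeuroD1 replicate 1 and had 24.4 FPKM in replicate 2, so the division of USP11 between these neighbouring starts differed within a group.
USP4 had 48.2 and 51.5 CPM in shControl against 51.5 and 53.7 CPM in shNeuroD1, a log2 fold change of 0.08 (95% interval -0.06 to 0.21), which passed the test only with scaling to library size alone (0.19, edgeR adjusted p 0.0164). USP15 had 110 and 111 CPM in shControl against 111 and 107 CPM in shNeuroD1, a log2 fold change of -0.02 (95% interval -0.12 to 0.09), and this sign turned with library-size scaling and with FPKM. Coding identity in this trio is 63.8% for USP4 and USP11, 65.5% for USP4 and USP15 and 61.1% for USP11 and USP15.

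USP4 and USP15 each held a cassette exon whose inclusion differed between groups. By the same rule as for starts, 6 of 99 member exons in 4 genes were singled out, where 5.06% of 18328 exons of all genes were, close to the members' share of 6.06%. Both exons below are coding and a whole number of codons long, 29 in USP15 and 47 in USP4, so that leaving them out keeps the reading frame. They are given 5′ to 3′ on the gene's strand, from the GENCODE transcripts (GRCh38).
USP15, chr12:62349221-62349307, plus strand: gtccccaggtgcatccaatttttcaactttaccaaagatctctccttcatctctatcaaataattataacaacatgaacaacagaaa
USP4, chr3:49311514-49311654, minus strand: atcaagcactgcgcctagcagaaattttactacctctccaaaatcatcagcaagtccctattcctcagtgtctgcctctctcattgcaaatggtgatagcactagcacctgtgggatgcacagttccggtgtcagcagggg
Inclusion of the USP15 exon was 94.3% and 79.5% in shControl against 50.6% and 70.7% in shNeuroD1, on 2.30 to 6.66 FPKM. Inclusion of the USP4 exon was 46.8% and 67.3% in shControl against 99.2% and 89.9% in shNeuroD1, on 2.11 to 6.42 FPKM. The 2 paralogs thus moved in opposite directions at these exons. FPKM with and without the USP4 exon summed to nearly that of the USP4 start at 49339924, whose own share of USP4 was 62.1% and 43.1% in shControl against 20.4% and 21.9% in shNeuroD1.
A further USP4 exon of 89 bases was included at 78.8% and 69.7% in shControl against 94.1% and 89.3% in shNeuroD1. USP10 and USP8 held the remaining 3 exons. These values have no count of reads behind them in the tables, so their depth is unknown and no interval can be given.

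Of 7 members tied to p53 and DNA damage 2 were lower (28.6%, against 28.2% of all genes) and 1 was higher (14.3% against 26.8%). USP10, which acts on p53 and in ribosome rescue, had 59.5 and 58.4 CPM in shControl against 52.5 and 48.5 CPM in shNeuroD1, 85.7% of control (edgeR adjusted p 0.00412). USP47, a deubiquitinase of DNA polymerase beta, lay at 86.1% of control. USP24 was higher, at 109%. USP48, USP42, USP45 and USP2 did not pass the test, with log2 fold changes between 0.01 and 0.33. The 95% interval of USP2, from -0.02 to 0.67, is the widest of these at 92 to 124 counts a library. USP10's partner G3BP1 had a log2 fold change of -0.14 (edgeR adjusted p 0.00703).

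Trafficking and signalling members, the largest group with 11 tested, split 3 lower (27.3%, against 28.2% of all genes) to 5 higher (45.5% against 26.8%), with 3 not past the test. Among the lower were USP31, and USP8, which deubiquitinates receptors at endosomes. USP31 lay at 74.2% and USP8 at 77.4% of control. USP8 went from 106 and 110 CPM to 83.9 and 83.4 CPM with groups apart. Its adaptor STAM fell from 50.4 and 51.4 CPM to 38.3 and 35.2 CPM (log2 fold change -0.47, edgeR adjusted p 1.03e-06, SE 0.0707), while STAM2 (-0.08, edgeR adjusted p 0.439) and HGS (0.03, edgeR adjusted p 0.594) did not pass the test.
USP33 and USP20, paralogs that act on the beta-adrenergic receptor, went opposite ways. USP33 had 176 and 172 CPM in shControl against 155 and 161 CPM in shNeuroD1, 90.9% of control (log2 fold change -0.14, edgeR adjusted p 0.0117, SE 0.0461). USP20 rose from 28.5 and 26.3 CPM to 36.0 and 36.8 CPM (log2 fold change 0.41, edgeR adjusted p 5.99e-05, SE 0.0807). Per kilobase USP33 was the higher of the pair in both groups, at 25.2 against 4.96 CPM per kilobase in shControl. On FPKM the USP20 value had the other sign, at -0.11 with a pseudocount of 1, and USP20 shares 60 exonic bases with C9orf78 on the other strand, which had 684 to 793 counts. The USP33 call was lost with DESeq2 (adjusted p 0.0552) and with scaling to library size alone (log2 fold change -0.03, edgeR adjusted p 0.653). With 1 library left out its log2 fold change lay between -0.17 and -0.11.
USP6, a hominoid-specific oncogene made by fusion of part of USP32 with TBC1D3, had 30 and 35 counts in shControl against 68 and 56 counts in shNeuroD1. It was 1.92-fold higher (log2 fold change 0.94, edgeR adjusted p 0.00210, SE 0.252), on few counts. This call was lost with DESeq2 (adjusted p 0.0849) and with either control library left out (log2 fold change 0.87, edgeR adjusted p 0.0715 without shControl replicate 1, and 0.99, edgeR adjusted p 0.0596 without replicate 2). USP32 itself, at 162 and 163 CPM in shControl against 181 and 186 CPM in shNeuroD1, rose to 113% of control. The pair shares 85.0% of aligned coding bases and a run of 175 identical bases, so how many USP6 counts belong to USP32 is uncertain.
USP9X, which keeps several signalling and cell-polarity proteins from degradation, had 277 and 301 CPM in shControl against 314 and 313 CPM in shNeuroD1, 108% of control (edgeR adjusted p 0.0265). This call was lost with DESeq2 (adjusted p 0.167), with no filter on low counts, and in 3 of the 4 fits with a library left out. Without shControl replicate 1 the log2 fold change of USP9X was 0.05. USP34, a Wnt pathway enzyme, lay at 109%, and overlaps AHSA2P on the opposite strand by 1247 bases, with 1888 to 2214 counts for AHSA2P. USP9Y did not pass the test (log2 fold change 0.02, 95% interval -0.09 to 0.13) and shares 89.8% of aligned coding bases with USP9X. The longest run shared by USP9X and USP9Y is 56 bases, so short reads within it could match both genes. USP53 and USP54 did not pass it either, at log2 fold changes of 0.00 and 0.06.

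The remaining members are enzymes of organelles, the proteasome, splicing and immune signalling. USP25, found at the endoplasmic reticulum and in immune signalling, had 29.6 and 27.8 CPM in shControl against 18.6 and 18.8 CPM in shNeuroD1. It fell to 65.3% of control (log2 fold change -0.62, edgeR adjusted p 1.03e-06, SE 0.0923), and its start (chromosome 21, 15729940) was listed at 4.38 and 4.23 FPKM in shControl and at 0 and 1.97 FPKM in shNeuroD1. The 0 stood in a library with 283 counts of the gene.
USP39, a catalytically inactive member of the spliceosome's tri-snRNP, had 160 and 142 CPM in shControl against 104 and 105 CPM in shNeuroD1, 69.3% of control (log2 fold change -0.53, edgeR adjusted p 4.48e-10, SE 0.0534). It overlaps genes on the opposite strand, among them TMEM150A at 53 and 95 counts in shControl against 199 and 214 in shNeuroD1. On FPKM its log2 fold change was 0.00 with a pseudocount of 1, so its fall was not seen on that scale. Of the spliceosomal proteins listed as partners SART1 fell by 0.34 on the log2 scale (edgeR adjusted p 9.65e-06), and SART3, which binds USP4 and USP15, by 0.26 (edgeR adjusted p 2.07e-05).
USP14, the reversible proteasome subunit that trims ubiquitin before degradation, had 161 and 159 CPM in shControl against 150 and 141 CPM in shNeuroD1, 91.0% of control (edgeR adjusted p 0.0162). Its exons share 110 bases with THOC1 on the other strand, which had 1301 and 1346 counts in shControl against 836 and 921 in shNeuroD1. USP19, tail-anchored in the endoplasmic reticulum, USP38, USP40 and USP35 did not pass the test, with log2 fold changes between -0.06 and 0.22.

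Paralog groups were set side by side. USP12 and USP46 both fell, as did USP25 (65.3% of control) and USP28 (85.3%), which share 62.8% of aligned coding bases. USP13 fell while the 95% interval of USP5 spans 0, and the pair shares 68.0% of aligned coding bases. USP20 and USP33 had calls in opposite directions at 63.0% identity. In the plot of paralog groups, intervals overlap for USP9X and USP9Y, for USP4 and USP15, and for USP51 with USP22 and USP27X, and do not overlap in the other pairs. These differences between genes were read from the intervals and not tested.

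**Figure D4:**
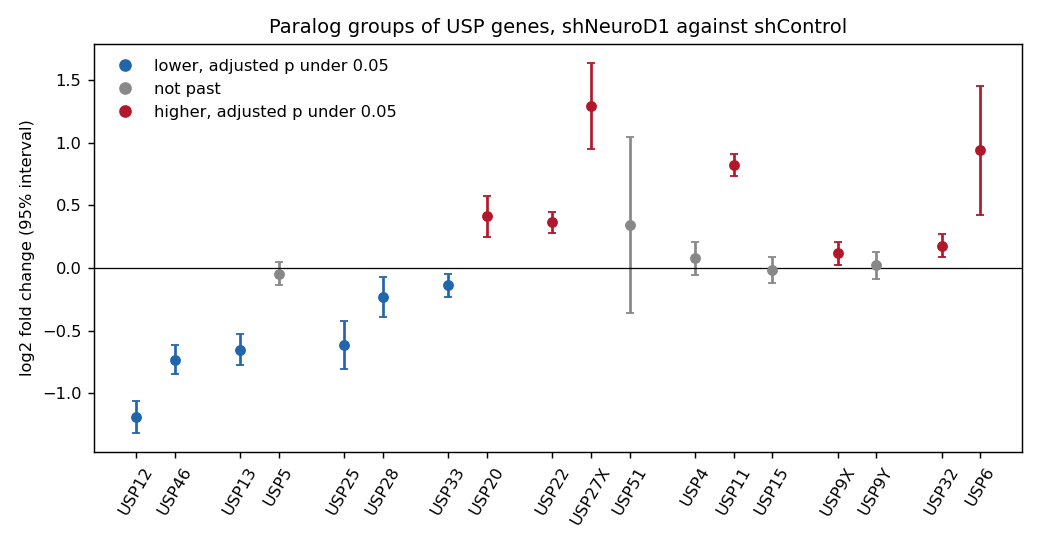
Log2 fold change (y axis, shNeuroD1 against shControl, edgeR) of 18 genes in 8 paralog groups set side by side, with bars for the 95% interval. Blue is lower, red higher and grey not past adjusted p under 0.05; USP20 (0.41) and USP33 (-0.14) lie on opposite sides of 0, and USP11 (0.82) stands above USP4 (0.08) and USP15 (-0.02).

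Levels per kilobase of exon put USP22 first, at 60.9 CPM per kilobase over the 4 libraries, then USP5 at 51.0 and USP11 at 41.3. In shControl USP22 (53.2 ± 1.84 CPM per kilobase, SD, n = 2) and USP5 (51.8 ± 1.36, n = 2) differed by less than the SD of USP22, and USP39 (38.2) and USP11 (29.9) followed. In shNeuroD1 USP22 stood at 68.5 CPM per kilobase and USP11 at 52.8 ± 0.0964 (SD, n = 2), above USP5 at 50.2 ± 0.892. USP6, at 0.275 CPM per kilobase over all libraries, and USP18, at 0.247, were the scarcest. Exon length is the union of annotated exons, so a gene with long unused exons reads too low.

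Deubiquitinases of other folds were set beside the USPs. Of 33 tested genes of the OTU, UCH, Josephin, MINDY, JAMM and ZUFSP classes, 13 were lower (39.4%, against 28.2% of all genes) and 6 higher (18.2% against 26.8%), with a median log2 fold change of -0.16 against 0.01 over all genes. BRCC3, a JAMM enzyme of DNA-damage and inflammasome complexes, had the lowest value at -1.27 (edgeR adjusted p 1.17e-12), and MINDY4 the highest at 1.04 (edgeR adjusted p 0.000637). Among proteins with the USP fold outside the symbol rule, CYLD and PAN2 were higher and USPL1 did not pass the test.

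Short sequence motifs were counted in the promoters and 3′ untranslated regions of members. RefSeq entries existed for 37 of the 47 members, with 49 windows of 250 bases before a start. CANNTG, which reads the same on both strands, was present in 49% of member windows and in 61.8% of all 35116 windows. CAGATG or CATCTG, the same motif on the 2 strands and contained in the first, was present in 8.16% against 12.2%, in USP30, USP54 and USP6. CAGCTG was present in 12.2% against 14%. The 7-mer GCAATTC was chosen because it was the leading 7-mer of 3′ untranslated regions in earlier results of these data. Its letters also occur in one of the NeuroD1 hairpins listed in the study's methods. It was present in the longest annotated 3′ untranslated region of 6 of 46 members (13%) and of 9.3% of 13219 genes. USP13 held 2 copies, and USP3, USP46, USP51, USP8 and USP9X 1 each. The median log2 fold change was -0.32 for the 6 members with it and 0.01 for those without, against -0.16 and -0.02 over all genes. The choice of the 7-mer rests on these same libraries, so the medians are no separate support for it. The motif's part in these values was not tested, and USP12 did not hold it.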

How the data were processed

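RNA sequencing of 4 IMR-32 libraries was used, grouped by the sample titles. The authors deposited raw read counts per gene. Per the labels' processing notes, cutadapt 1.9.1, HISAT2 2.0.1, HTSeq 0.6.1 and DESeq2 were used, with build hg38, and whether counting used strand is not given in the sources used here. The authors also deposited FPKM values of assembled transcript starts, ends and splicing events, listed only above 0, and these were summed over starts for a value per gene. The tool that made them is not given. Gene symbols were matched to 60588 of the 60612 gene identifiers through the reference tables.

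Counts were tested in R 4.3.3 with edgeR 4.0.16 (TMM scaling, filterByExpr with a minimum count of 10, quasi-likelihood F-test, two-sided) over 17537 genes, with Benjamini-Hochberg adjustment over all of them. Limits of the precision are the 2 libraries a group at 14665210 to 16482463 counts each. The test was first tried on simulated data. Alternatives were DESeq2 1.42.0, limma 3.58.1 on log2(FPKM + 1) and log2(FPKM + 0.1), other scalings and filters, the replicate number as a block, and each library left out. Same-numbered libraries deviated together with a correlation of only 0.0158 across genes, so numbers were not taken to pair the libraries. Cell-cycle lists came from Seurat 5.3.0.

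Members with a call beyond 1 on the log2 scale, those linked to N-Myc, the partners in each paralog pair, the 6 lowest and 6 highest changes among called members, and the 3 highest levels per kilobase are named with values, and others with ranges or in passing. Members and lists were chosen with earlier results of these data known. Coding sequences from GENCODE release 29 were aligned with Biopython 1.88 in place of proteins, which had been planned.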

Additional observations from a re-analysis of the deposited data

How the results depend on the processing

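With scaling to library size alone the median of all genes moved to 0.12, that of the members to 0.12 as well, and 10 members were lower and 18 higher, 2 of these past 1 on the log2 scale. Shares of all genes called under the settings of this paragraph were not counted, so its counts of members have no background beside them. DESeq2 called 11 lower and 6 higher, each of them among the calls reported. limma on log2(FPKM + 1), with 39 members tested, left 1 lower (USP3) and 0 higher, and on log2(FPKM + 0.1) left 0 and 0. No call past 1 on the log2 scale was left on the second. USP27X, the only higher call past 1 reported, has no FPKM entry, so FPKM could not test it. The replicate number as a block gave 16 lower and 11 higher, with the same genes called and none added. Leaving out 1 library gave 11 to 14 lower and 6 to 8 higher members, with 1 member below -1 throughout, 1 to 2 above 1, and a family median between -0.03 and 0.04. Higher calls fell to 6 without shControl replicate 1 and without shNeuroD1 replicate 2; a lone library is then assumed to vary like the other group.

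Signs turned for USP5 (0.065), USP7 (0.087) and USP15 (0.095) with library size alone, and for USP15 (0.51 and 0.62), USP20 (-0.11 and -0.18) and USP39 (0.0037 and 0.0093) on FPKM with pseudocounts of 1 and 0.1. With 1 library left out the range spanned 0 for USP51 (-0.18 to 0.72), USP15 (-0.048 to 0.011) and USP9Y (-0.0098 to 0.029). The causes were not tested. Of 178 values of 23 named members, 134 kept direction and side of the threshold and 33 kept direction but lost the call. Another 2, USP4 and USP9Y with library size alone, gained one. The remaining 9 turned sign, and among these USP20 and USP39 on FPKM also lost their calls. Counts of starts were 5 to 9 and of exons 4 to 7 under 4 other limits chosen after seeing the data. For starts these were 3.82% to 6.87% of the members' starts, against 3.98% to 10.8% of all starts. For exons they were 4.04% to 7.07% of the members' exons, against 2.67% to 6.96% of all exons. At 2 libraries a group, small changes such as those of USP9X, USP28 and USP33 are at the edge of what could be called.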
